A study of Mus musculus with 144 samples.

Results

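The immediate early genes Fos, Jun, Junb, Egr1, Atf3, Ier2, Ier3, Dusp1, Btg2 and Myc were followed in mouse liver. They were chosen by name and are 10 of the 51912 genes of the deposited count table. Liver RNA was sequenced from the transcript's 3′ end (QuantSeq) in 4 series of 36 libraries. Wild-type mice gave 3 of them, from total, nuclear and polysomal RNA, and Bmal1-/- mice the other, from total RNA, with 6 libraries at each of ZT2, ZT6, ZT10, ZT14, ZT18 and ZT22, where ZT is hours after lights on. The labels give all animals as male C57BL/6J mice kept in 12 h of light and 12 h of darkness, with food and water always at hand. The labels do not say which part of Bmal1 was altered, whether the loss was in the whole body, or how old the mice were, and they do not tie the libraries of a group to separate animals, so p-values measure the spread between these libraries only.

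Immediate early genes are transcribed within minutes of a stimulus, without new protein synthesis, when kinase cascades activate factors such as SRF, the ternary complex factors and CREB that already sit at their promoters. Their mRNAs carry AU-rich elements and decay fast, so levels in a tissue depend on recent stimulation. In liver they are known for their response to partial hepatectomy, feeding, hormones and the stress of tissue collection. BMAL1 is the partner of CLOCK in the activating arm of the circadian clock and binds E-boxes such as CACGTG.

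Promoter sequence was available for 7 members (RefSeq, GRCm38.p6) but not for Egr1, Ier2 and Myc. The 250 bases before to 50 bases after each start site were searched on both strands. The cyclic AMP response element TGACGTCA was found in Btg2 and Dusp1, and in 1.79% of 32851 promoters of the same length. CACGTG was found in Dusp1 and in 7.15% of promoters, TATAAA in Junb and Fos and in 13.6%, and GGGCGG in Btg2, Atf3, Jun, Fos, Dusp1 and Ier3 and in 35.7%. TATAAA spans 33 to 28 bases upstream of the start site in Fos, but in Junb it begins at the start site itself, outside the stretch printed below. The CArG box, which SRF binds, was in 0 of the 7 and in 1.63% of promoters, and the AP-1 site TGACTCA in 0 of the 7 and in 5.2%. Only exact matches within this stretch were counted. Sites farther from the start site, sites with mismatches and those of Egr1, Ier2 and Myc were not searched, so the members may hold sites not seen here. Promoters of 3 genes that the results turn on are printed: the 180 bases before the start site of Junb, the member with the lowest p for a 24 h rhythm, and of Dusp1 and Btg2, which hold the exact matches. All lie on the minus strand, at chr8:84978749-84978928, chr17:26508473-26508652 and chr1:134079156-134079335, are written 5′ to 3′, and have TGACGTCA and CACGTG in capitals.
Junb: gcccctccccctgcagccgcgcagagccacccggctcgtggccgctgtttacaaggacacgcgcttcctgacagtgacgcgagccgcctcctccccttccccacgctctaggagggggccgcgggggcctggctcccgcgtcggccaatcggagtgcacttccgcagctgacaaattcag
Dusp1: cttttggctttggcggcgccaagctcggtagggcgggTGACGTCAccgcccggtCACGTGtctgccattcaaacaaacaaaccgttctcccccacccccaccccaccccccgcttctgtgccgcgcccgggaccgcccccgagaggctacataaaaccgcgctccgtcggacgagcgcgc
Btg2: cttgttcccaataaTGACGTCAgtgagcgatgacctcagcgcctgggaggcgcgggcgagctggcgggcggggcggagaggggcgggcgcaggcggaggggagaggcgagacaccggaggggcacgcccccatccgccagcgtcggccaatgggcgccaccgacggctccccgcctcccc
In Dusp1 TGACGTCA spans 143 to 136 and CACGTG 126 to 121 bases upstream of the start site. In Btg2 TGACGTCA spans 166 to 159 bases upstream.

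Library totals ran from 1662449 to 14281894 counts. CPM is a gene's count scaled to the total count of its library, and a group of 6 is given as its lowest, median and highest library. The clock genes followed their labels: Dbp had a fitted peak-to-trough ratio of 95.4 in wild-type total RNA, and Nr1d1 was lower in Bmal1-/- total RNA, with a log2 difference of -3.38 (SE 0.25, adjusted p 1.92e-18, edgeR). Counts of Arntl (Bmal1) were higher in Bmal1-/- total RNA, by 1.24 (SE 0.12), so its 3′ reads do not check the genotype. Neat1, a nuclear RNA, was 3.06 higher in nuclear RNA (SE 0.14). Malat1, the other nuclear RNA checked, went the other way there, at -0.32 (SE 0.12, adjusted p 0.0155, edgeR). In polysomal RNA both were lower, at -4.27 (SE 0.15) for Neat1 and -5.15 (SE 0.16) for Malat1. The sum of 6 hepatocyte markers was at least 14030 CPM in every library. Xist, which female cells express, was above 100 CPM in 4 libraries, all labelled male and all at ZT22, against at most 5.67 in the others. Of these, wild-type total replicate 5, wild-type nuclear replicate 5 and polysomal replicate 1 had at most 0.761 CPM in sum over 4 Y-linked genes, whereas Bmal1-/- replicate 6 had 143 CPM and the other libraries at least 35.9. Leaving these 4 libraries out changed no count of called members in the level and rhythm tests below.

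Fos, Atf3 and Myc averaged 3.06 to 8.11 counts per library and fell under the minimum of 10, so 7 of the 10 members were tested in each comparison. A gene is called below where its Benjamini-Hochberg adjusted p in edgeR's quasi-likelihood test over all genes tested is under 0.05.

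Of the 7 tested members, Junb and Egr1 were called for a 24 h rhythm in wild-type total, nuclear and polysomal RNA, with fitted peaks in the light phase. Neither was called in Bmal1-/- liver, and for both the difference in 24 h pattern between the genotypes was called. Both difference calls were lost with replicates 1 to 3 or 4 to 6 alone. The Egr1 calls were the less firm: with time as 6 levels Egr1 was called in none of the wild-type series, and its difference was not called (adjusted p 0.322, edgeR). The rhythm test fits a cosine of 24 h within a series. It called 2 of 7 members in wild-type total RNA, where 18.9% of all genes were called. The same 2 were called in nuclear RNA (5.99% of genes) and in polysomal RNA (7.90% of genes). In Bmal1-/- total RNA 0 of 7 were called by edgeR, 0 had an unadjusted p under 0.05, and DESeq2 called 0; 0.00825% of all genes were called there. The test of the difference between Bmal1-/- and wild-type total RNA called Junb and Egr1, 2 of 7 members, against 5.18% of all genes.

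Junb, an AP-1 subunit of the Jun family that often restrains c-Jun, lies at chr8:84976909-84978748 (GRCm38.p6). Its lowest, median and highest wild-type total libraries were 7.28, 11.4 and 16.3 CPM at ZT2, 14.4, 20.3 and 32.5 at ZT6, and 6.42, 11.3 and 21.1 at ZT10. They were 3.81, 6.62 and 9.65 CPM at ZT14, 3.14, 6.03 and 9.80 at ZT18, and 5.45, 7.54 and 11.2 at ZT22. Every ZT6 library was above every library of ZT14, ZT18 and ZT22. The fitted peak was at ZT5.61, and the ratio of peak to trough (the ratio below) was 3.03 (adjusted p 2.53e-06, edgeR). In nuclear RNA the 6 ZT6 libraries held 19.2 to 46.9 CPM and the 6 ZT18 libraries 9.07 to 16.3 CPM, with a fitted peak at ZT6.86 and a ratio of 2.86 (adjusted p 1.29e-05). In polysomal RNA they held 22.3 to 41.8 and 4.72 to 18.4 CPM, with a peak at ZT6.12 and a ratio of 2.86 (adjusted p 0.000478). The Bmal1-/- series went the other way at ZT6: its 6 libraries ran from 5.10 over a median of 7.53 to 11.95 CPM, all below the lowest wild-type library of that time. At ZT18 they ran from 4.92 over 11.1 to 17.9 CPM and overlapped the wild-type range. The fitted ratio in Bmal1-/- was 1.27 (adjusted p 0.9999, edgeR), and the difference between the 24 h fits had an adjusted p of 0.00135. With replicates 1 to 3 or 4 to 6 alone it was 0.166 and 0.0862.

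Egr1, a zinc finger factor induced by growth signals (chr18:34861207-34864956), varied widely between libraries. Its biological coefficient of variation was 0.996 in wild-type total RNA, at the 99.6th percentile of genes. This is the relative spread of libraries around the fitted 24 h cosine beyond counting noise. At ZT2 the 6 wild-type total libraries ran from 7.34 over 17.6 to 41.6 CPM, at ZT6 from 3.82 over 16.2 to 61.4, and at ZT10 from 0.762 over 4.26 to 8.54. At ZT14 they ran from 0.131 over 2.48 to 15.9 CPM, at ZT18 from 0.835 over 0.905 to 15.1, and at ZT22 from 0.602 over 2.83 to 32.0. The medians at ZT2 and ZT6 were the highest, but single libraries of ZT14, ZT18 and ZT22 reached into their range. The fitted peak was at ZT3.32 with a ratio of 7.28 in total RNA (adjusted p 0.00660, edgeR), at ZT3.32 with 5.69 in nuclear RNA (adjusted p 0.00783) and at ZT2.99 with 10.8 in polysomal RNA (adjusted p 0.00594). The highest library of all was polysomal replicate 2 of ZT6 with 141 CPM, where the median was 19.0. In Bmal1-/- total RNA the medians stayed between 4.95 CPM at ZT2 and 7.48 CPM at ZT10, the highest library was 40.0 CPM at ZT14, and the fitted ratio was 1.79 (adjusted p 0.9999). The difference between the genotypes had an adjusted p of 0.0397. It was 0.322 with time as 6 levels in place of the cosine, 0.0702 when every gene with a count was kept, 0.0685 with the libraries of all series in one fit, and 0.0551 and 0.126 with replicates 1 to 3 or 4 to 6 alone. This call was also lost without replicate number 2, 3, 5 or 6 (adjusted p 0.0836 to 0.150) and without wild-type total replicate 6 of ZT6, the library highest in Egr1 (adjusted p 0.0535); the rhythm call in wild-type total RNA was lost without replicate number 5 or 6 (adjusted p 0.0675 and 0.0534), and that in nuclear RNA without replicate number 5 (0.102). With time as 6 levels, Egr1 was called in none of the 3 wild-type series (adjusted p 0.0671, 0.0783 and 0.0668).

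**Figure D1:**
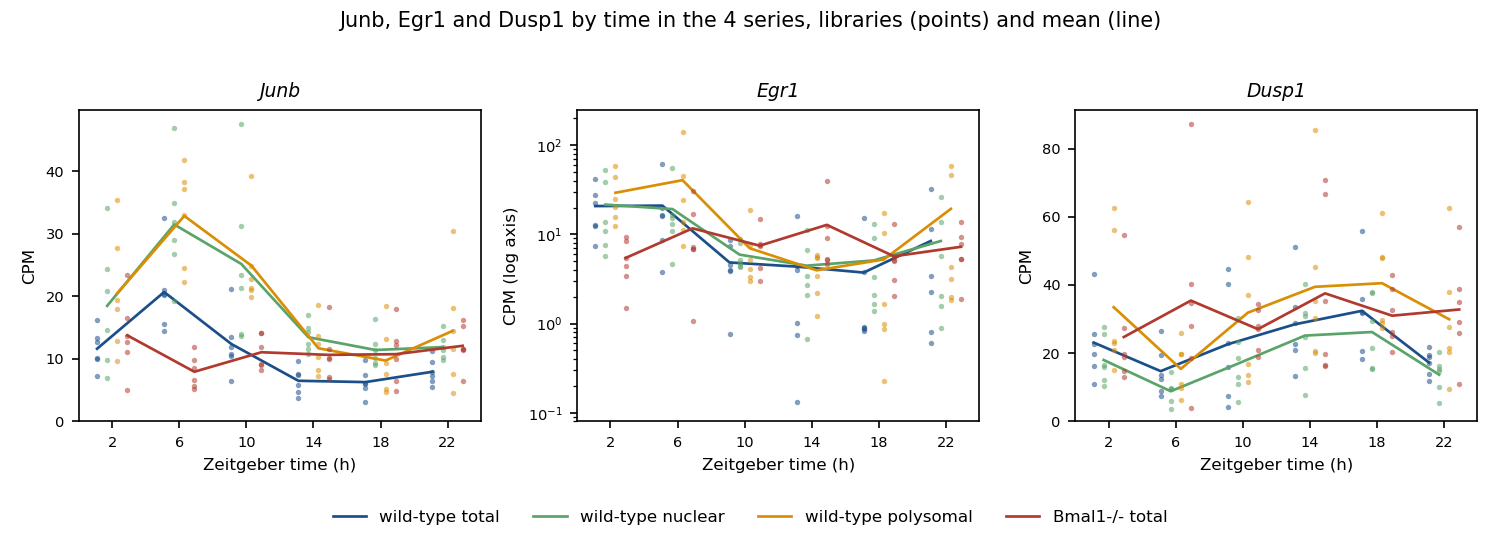
CPM of Junb, Egr1 (log axis) and Dusp1 against zeitgeber time, with 1 point per library, 6 libraries per time point and series, and lines through the means. The means of Junb are highest at ZT6 in the 3 wild-type series, whereas the Bmal1-/- ZT6 libraries of Junb, 5.10 to 11.95 CPM, lie below all wild-type total libraries of that time; Dusp1 is lowest at ZT6 in the wild-type series.

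Levels of markers of other cell types were read beside these results. The summed level of 6 neutrophil markers in wild-type total RNA averaged 21.3 CPM at ZT6 and 5.80 at ZT18, with Ly6g under a mean of 1 count, and that of 7 Kupffer cell markers averaged 364 CPM at ZT10 and 197 at ZT18. The rhythm test in edgeR called 0 of 7 Kupffer cell markers (1 with an unadjusted p under 0.05, 0 called by DESeq2) and 0 of the 2 neutrophil markers tested (0 and 0), where 18.9% of all genes were called. Their part in the Junb and Egr1 results was not tested. In bulk RNA fewer cells of a type and less RNA per cell cannot be told apart.

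Dusp1, the phosphatase that switches off MAP kinases and a known target of glucocorticoids and cyclic AMP (chr17:26505591-26508472), was at its lowest when Junb was high. In wild-type total RNA its libraries ran from 7.40 over 12.9 to 26.6 CPM at ZT6 and from 18.2 over 31.9 to 55.8 at ZT18, so the ranges overlapped. Fitted peaks were at ZT16.8, ZT16.8 and ZT17.2 in total, nuclear and polysomal RNA, with ratios of 1.81, 2.08 and 2.26, and none was called (adjusted p 0.136, 0.0898 and 0.122, edgeR). DESeq2 called it in nuclear RNA (adjusted p 0.0449) and polysomal RNA (0.0432). In edgeR it was also called in nuclear RNA with time as 6 levels (adjusted p 0.0226) and in polysomal RNA with the libraries of all series in one fit (0.03985). The other alternatives did not call it. Jun, the c-Jun subunit of AP-1 (chr4:95049036-95052222), had a fitted peak at ZT17.45 with a ratio of 1.49 in wild-type total RNA (adjusted p 0.126). Its fitted peak in Bmal1-/- liver was at ZT8.67 with a ratio of 1.58 (adjusted p 0.9999), and the difference between genotypes was not called (adjusted p 0.134). Btg2, an antiproliferative adaptor of the CCR4-NOT deadenylase (chr1:134074865-134079155), had peaks at ZT23.1, ZT21.55 and ZT23.0 in the wild-type series, with ratios of 1.63, 1.40 and 1.43 and no call. For Ier2, a small nuclear protein of early growth signalling (chr8:84661331-84662852), the ratio in total RNA was 1.04 for wild-type and 1.05 for Bmal1-/- mice. For Ier3, a stress-induced regulator of cell survival (chr17:35821713-35822911), it was 1.255 and 1.59, neither called.

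**Figure D2:**
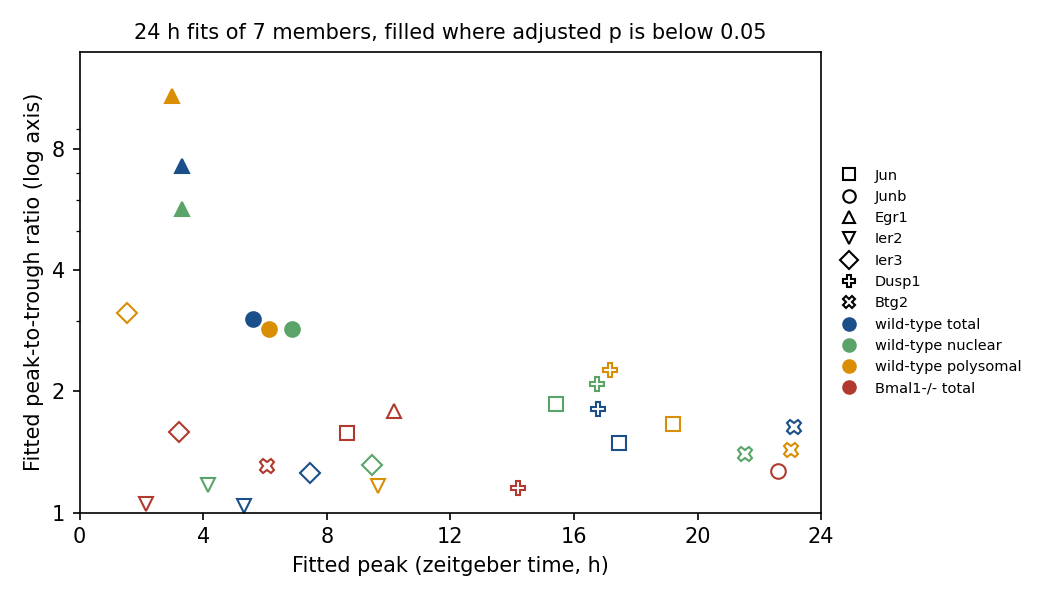
Fitted 24 h peak (zeitgeber time, h) against fitted peak-to-trough ratio (log axis) for the 7 tested members in each series; filled symbols have an adjusted p below 0.05. The filled symbols are Egr1 near ZT3 and Junb near ZT6 in the 3 wild-type series, and the wild-type Dusp1 symbols lie near ZT17 without a call.

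The 24 h patterns of nuclear and polysomal RNA were also set against total RNA. Neither test called a gene: 0% of genes were called, 0 of 7 members by edgeR and 0 by DESeq2 in each. Over all genes, an unadjusted p under 0.05 was reached by 244 in the nuclear and 673 in the polysomal test, and DESeq2 called 0 and 9. The unadjusted p of Junb was 0.270 and 0.875, and that of Egr1 was 0.935 and 0.793, which does not show that the fractions share a pattern.

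Averaged over the day, the loss of Bmal1 moved few members. The level test of Bmal1-/- against wild-type total RNA called 2 of 7: 1 was higher, where 22.4% of all genes were called higher, and 1 was lower, where 21.7% were. Counting both directions, the share does not exceed that of all genes, and the median log2 difference of the 7 was 0.06, against 0.01 over all genes.

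Ier3 was lower in Bmal1-/- liver. Its 36 wild-type total libraries ran from 1.20 over 2.18 to 4.56 CPM and the 36 Bmal1-/- libraries from 0 over 1.53 to 3.71 CPM, so that the ranges overlapped. The Bmal1-/- mean was lower at 5 of 6 time points, and the difference was -0.54 on the log2 scale (SE 0.13, adjusted p 0.000601). The highest wild-type library, replicate 5 of ZT22, is 1 of those with Xist, and without it the highest was 4.08 CPM. Beside the Ier3 difference, Kupffer cell markers were called lower in Bmal1-/- liver for 6 of 7 genes, with a median log2 difference of -0.63. Red blood cell markers were called lower for 4 of 5, with a median of -0.97. Of all genes 21.7% were called lower. Endothelial and stellate cell markers went both ways, with 2 higher and 2 lower of 6 in each list. So did hepatocyte markers, with 1 higher and 2 lower of 6 and a median of -0.05. Of the neutrophil markers 1 of 2 tested was called lower, and of the lymphocyte markers 1 of 1 tested. The part of these cell types in the Ier3 result was not tested. The Ier3 call was lost with replicates 4 to 6 alone (-0.38, adjusted p 0.117) and with the libraries of all series in one fit (-0.52, adjusted p 0.0798). Btg2 was higher, at 1.92, 4.45 and 13.6 CPM in wild-type and 1.51, 6.89 and 10.3 CPM in Bmal1-/- liver (lowest, median and highest of 36). The 13.6 CPM were in the same library with Xist, and without it the highest wild-type library held 9.34 CPM. Its log2 difference was 0.31 (SE 0.12, adjusted p 0.0267). The Btg2 call was lost without replicate number 3 (0.32, adjusted p 0.0580), 4 (0.21, 0.190) or 6 (0.22, 0.192), and with replicates 1 to 3 alone the difference was 0.06.

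Dusp1 and Ier2 lay just outside the threshold. Dusp1 ran from 4.29 over 20.2 to 55.8 CPM in wild-type and from 3.85 over 27.6 to 87.2 CPM in Bmal1-/- liver, a log2 difference of 0.39 (SE 0.18, adjusted p 0.0609). It was called without replicate number 1, 2 or 3 (0.52, 0.51 and 0.47) and with replicates 4 to 6 alone (0.97, adjusted p 0.000342), but with replicates 1 to 3 alone the difference turned to -0.16 (adjusted p 0.637). For Ier2 the difference was 0.28 (SE 0.12, adjusted p 0.0521), with a higher Bmal1-/- mean at 6 of 6 time points. Jun, Junb and Egr1 differed by 0.06 (SE 0.13), 0.03 (SE 0.12) and -0.13 (SE 0.31), and none was called (adjusted p 0.747, 0.844 and 0.770).

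Fos, the partner of Jun proteins in AP-1 (chr12:85473890-85477274), gave 123 counts over the 36 wild-type total libraries and 292 over the 36 Bmal1-/- libraries, a mean of 0.425 ± 0.477 CPM (SD, n = 36) against 1.06 ± 1.09. It was at most 3 counts in 24 of the wild-type and 12 of the Bmal1-/- libraries. The Bmal1-/- mean was higher at 5 of 6 time points, and it was 0.960 ± 0.914 CPM (n = 35) without replicate 1 of ZT10. When every gene with at least 1 count was tested, Fos was called, with a log2 difference of 1.21 (SE 0.33, adjusted p 0.00328), while Myc (0.93, SE 0.40, adjusted p 0.0920) and Atf3 (-0.18, SE 0.24, adjusted p 0.876) were not. Atf3 is a stress-induced factor of the ATF/CREB family (chr1:191170296-191183333), and Myc a growth regulator (chr15:61985341-61990361).

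**Figure D3:**
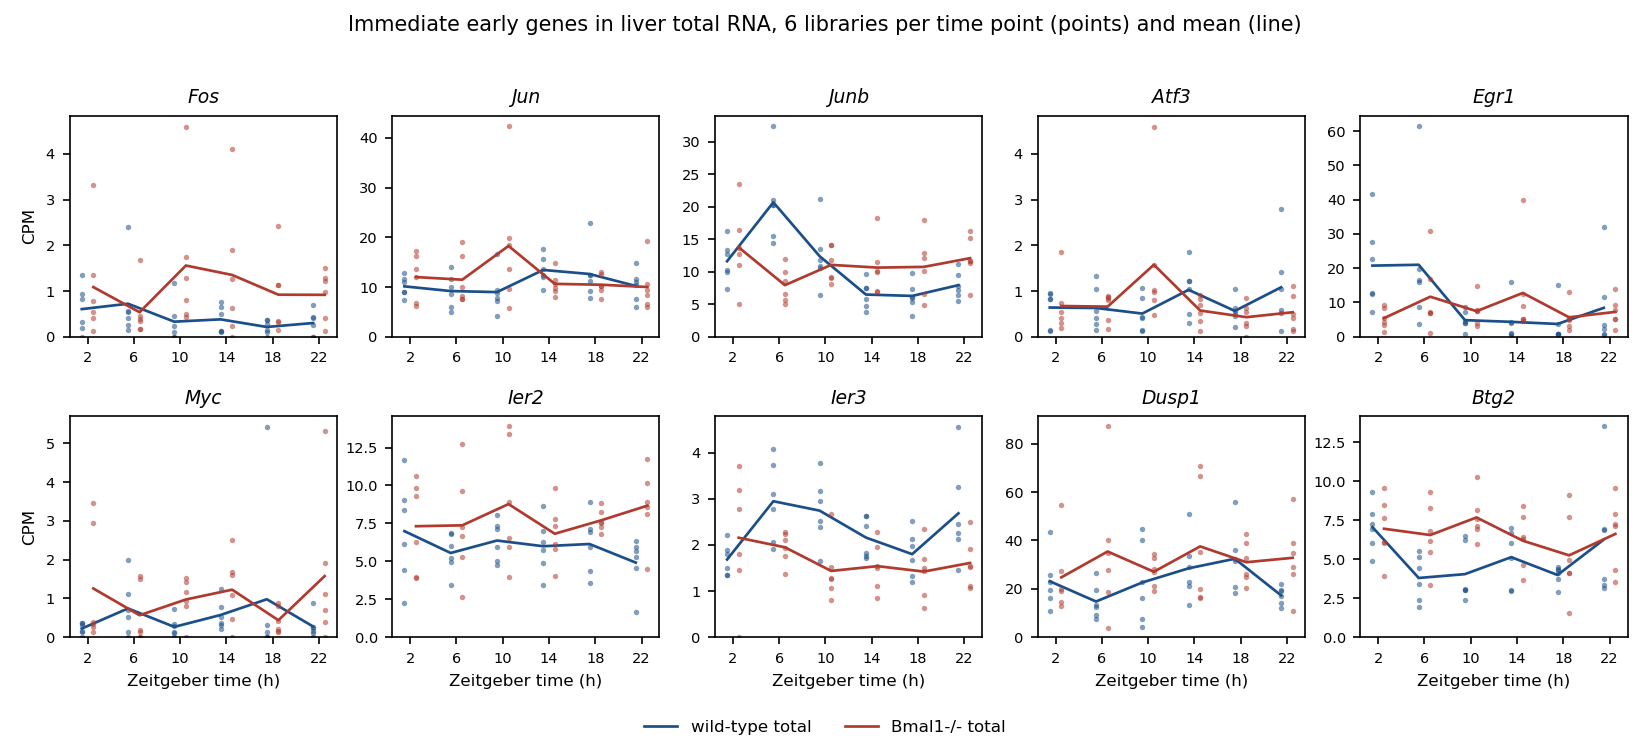
CPM of the 10 members in total RNA of both genotypes against zeitgeber time (h), with 1 point per library, 6 per time point and genotype, and lines through the means. The means of Junb peak at ZT6 in wild-type liver and are lowest at ZT6 in Bmal1-/- liver, Ier3 means lie lower in Bmal1-/- liver at 5 of 6 time points, and replicate 1 of ZT10 in Bmal1-/- is the highest of its series for Fos, Jun, Atf3 and Btg2.

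Levels in the fractions were compared with total RNA. Junb was higher in both nuclear and polysomal RNA than in total RNA, Btg2 and Dusp1 were lower in nuclear and higher in polysomal RNA, Ier3 was higher in nuclear RNA and Jun lower in polysomal RNA. Shares of a library are compared here, not amounts per cell. In nuclear RNA 4 of 7 members were called. Junb and Ier3 were higher, where 41.6% of all genes were, and Dusp1 and Btg2 lower, where 42.1% were. In polysomal RNA 5 of 7 were called, of which 4, Junb, Ier2, Dusp1 and Btg2, were higher, where 38.8% of all genes were, and 1, Jun, was lower, where 37.2% were. Counting both directions, neither share exceeds that of all genes. The polysomal share depends on replicate number 1, without which Egr1 (0.92) and Ier3 (-0.70) were also called. Polysomal replicate 1 also differed from the other replicates in Jund, given below. The tests share the wild-type total libraries.

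Junb ran from 3.14 over 9.73 to 32.5 CPM in total RNA, from 6.998 over 14.4 to 47.6 in nuclear RNA and from 4.58 over 18.25 to 41.8 in polysomal RNA (36 libraries each). The means were higher than in total RNA at 6 of 6 time points in both fractions, by 0.73 (SE 0.11, adjusted p 8.40e-09) and 0.74 (SE 0.12, adjusted p 2.58e-07) on the log2 scale. Jun ran from 4.16 over 10.7 to 22.8 CPM in total RNA and from 1.99 over 5.62 to 18.2 in polysomal RNA. It was lower there at 6 of 6 time points (-0.71, SE 0.15, adjusted p 1.33e-05), and differed by -0.08 (SE 0.13, adjusted p 0.575) in nuclear RNA. Egr1 differed by 0.04 (SE 0.33) in nuclear and 0.52 (SE 0.36) in polysomal RNA, neither called (adjusted p 0.918 and 0.179). Among the AP-1 subunits, Jun and Junb thus moved in opposite directions in polysomal RNA, with the difference between them not tested.

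Ier3 ran from 0.629 over 5.03 to 9.71 CPM in nuclear RNA (9.68 at most without the library with Xist), 0.97 above total RNA on the log2 scale (SE 0.15, adjusted p 1.63e-08). In polysomal RNA it ran from 0 over 1.98 to 28.9 CPM and differed by 0.24 (SE 0.28, adjusted p 0.433). The 28.9 CPM were in replicate 1 of ZT22, 1 of the libraries with Xist, where the other 5 libraries held 0.526 to 2.18 CPM. Without the libraries with Xist the polysomal difference was -0.06 (adjusted p 0.834), and the highest polysomal library held 20.4 CPM. Without replicate number 1 the polysomal difference of Ier3 turned to -0.70 (adjusted p 0.00368), Egr1 was also called (0.92, adjusted p 0.0222), and the count rose from 5 to 7 of 7.

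Btg2 ran from 0.354 over 3.43 to 14.7 CPM in nuclear RNA (7.14 at most without the library with Xist) and from 2.16 over 8.16 to 24.1 in polysomal RNA. Its mean was below that of total RNA at 6 of 6 time points in nuclear RNA (-0.57, SE 0.16, adjusted p 0.000751) and above it at 6 of 6 in polysomal RNA (0.72, SE 0.13, adjusted p 2.04e-06). Dusp1 showed the same signs, at -0.44 (SE 0.16, adjusted p 0.00759) and 0.40 (SE 0.17, adjusted p 0.0325). Its polysomal call was lost with median-ratio scaling (0.31, adjusted p 0.106), with DESeq2 (0.31, adjusted p 0.0828) and without replicate number 5 (0.23, adjusted p 0.305) or 6 (0.22, adjusted p 0.295), and the difference was -0.22 with replicates 1 to 3 alone. In nuclear RNA it was lost without replicate number 3 (-0.33, adjusted p 0.0660). With replicates 4 to 6 alone the nuclear difference of Btg2 was -0.36 (adjusted p 0.171) and the polysomal difference of Ier2 was 0.21 (adjusted p 0.305). Ier2 rose in polysomal RNA by 0.51 (SE 0.13, adjusted p 0.000407) and differed by 0.19 (SE 0.13, adjusted p 0.148) in nuclear RNA. Red blood cell markers were called higher in polysomal RNA for 4 of 5 genes (38.8% of all genes), with a median log2 difference of 1.76. Stellate cell markers were called lower for 5 of 6 (37.2% of all genes), with a median of -0.84. Hepatocyte markers were called lower for 4 of 6 and higher for 0, with a median of -0.43. Kupffer cell markers went both ways, with 2 higher and 4 lower of 7, as did endothelial markers, with 1 higher and 3 lower of 6. The part of these cell types in the polysomal results was not tested.

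**Figure D4:**
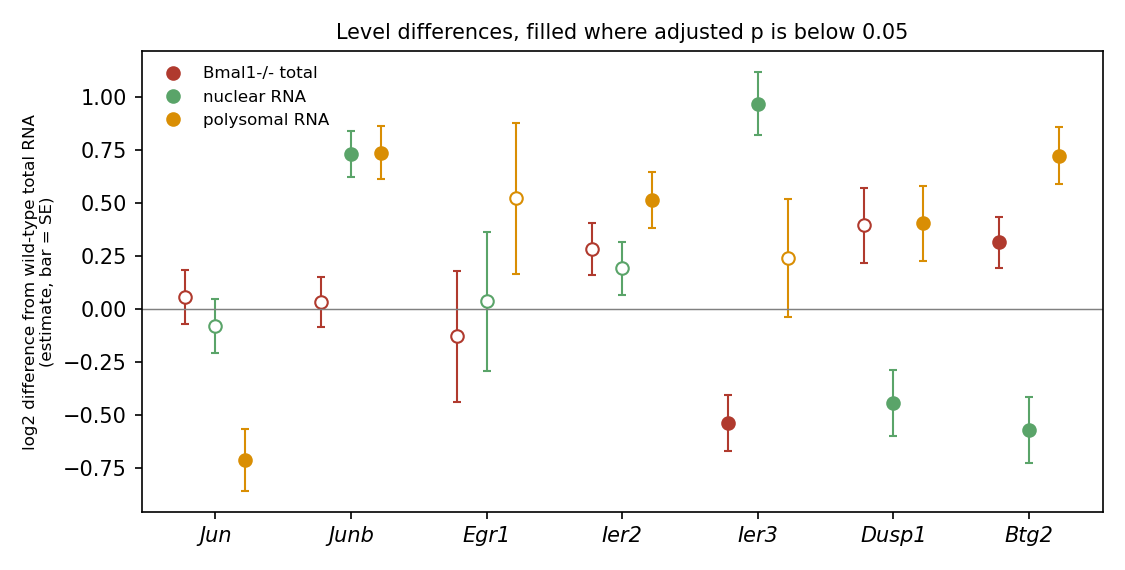
Log2 differences of the 7 tested members from wild-type total RNA over the mean of the 6 time points, with SE bars, for Bmal1-/- total, nuclear and polysomal RNA; filled points have an adjusted p below 0.05. Junb lies near 0.73 in both fractions and at 0.03 in Bmal1-/- liver, and Btg2 and Dusp1 change sign between nuclear and polysomal RNA.

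Single libraries stood far above their groups, and different members marked different libraries. Myc and Jun were highest in the same library in each wild-type series, always at ZT18: replicate 4 in total RNA (5.42 and 22.8 CPM), replicate 4 in nuclear RNA (6.22 and 30.9 CPM) and replicate 3 in polysomal RNA (3.94 and 18.2 CPM). The other 5 libraries of ZT18 held at most 0.305, 0.836 and 0.592 CPM of Myc. Nuclear libraries mostly correlated best with total RNA of their own number (29 of 36), and polysomal ones did not (0 of 36). The wild-type series may thus hold the same livers, so these co-occurrences need not be separate events. Atf3, Ier3 and Btg2 were highest in total RNA of replicate 5 at ZT22, the library with Xist, at 2.79, 4.56 and 13.6 CPM; without it the highest were 1.86, 4.08 and 9.34 CPM. Ier3 and Btg2 were highest in nuclear RNA of the same replicate number and time. In the Bmal1-/- series replicate 1 of ZT10 was highest for 4 members, with 4.60 CPM of Fos, 42.5 of Jun, 4.60 of Atf3 and 10.3 of Btg2. No wild-type library was highest for Fos and Jun together.

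**Figure D5:**
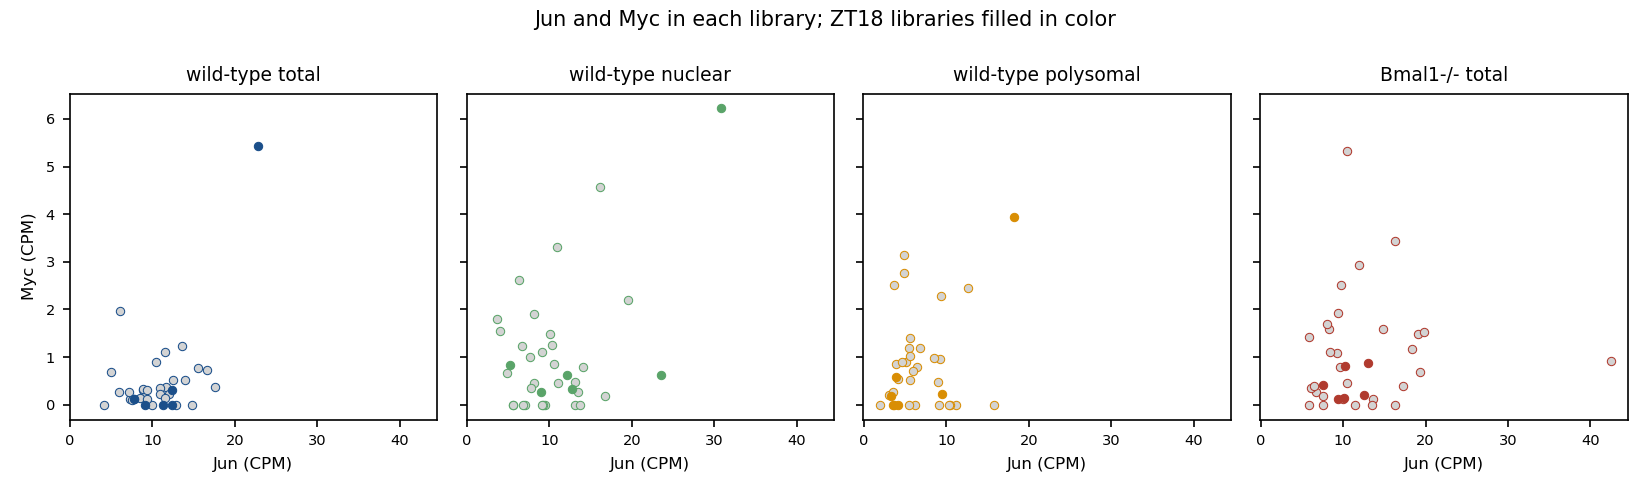
Myc against Jun (CPM) in each of the 36 libraries of the 4 series, with ZT18 libraries filled. In each wild-type series 1 ZT18 library is highest for both genes, at 5.42, 6.22 and 3.94 CPM of Myc, and in Bmal1-/- the library with 42.5 CPM of Jun is not high in Myc. The wild-type series may hold the same livers.

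Whether libraries high in Fos are high in the other members was asked of the deviations from each time-point mean, on the log2(CPM + 0.5) scale. Pearson's r and Spearman's rho were computed for 9 genes in 4 series, with two-sided permutation tests of 100000 resamples and adjustment over the 36 relations. In Bmal1-/- total RNA Fos rose and fell with Atf3 (r = 0.64, permutation p 0.0002, adjusted p 0.0072; rho = 0.59, permutation p 0.00051, adjusted p 0.0184). Without the 2 libraries farthest from the Fos median r was 0.56, and within replicates 1 to 3 and 4 to 6 it was 0.60 and 0.60 (18 libraries each). The relation of Fos with Junb there had r = 0.49 (permutation p 0.00535, adjusted p 0.0963; rho = 0.45). In the wild-type series 0 of 27 relations were called by r or by rho. Their r ran from -0.17 to 0.34 in total, from -0.17 to 0.43 in nuclear and from -0.17 to 0.38 in polysomal RNA, with 0, 2 and 1 of 9 at an unadjusted permutation p under 0.05. For Fos with Atf3, r was -0.07 in total, 0.23 in nuclear and 0.11 in polysomal RNA of wild type, and the difference in r between genotypes was not tested. Fos counts were too low to show more than coarse differences between libraries, since 24 of 36 wild-type total libraries held at most 3 counts. The relation in Bmal1-/- total RNA rests on low counts too: Fos and Atf3 averaged 8.11 and 5.78 counts there, each with at most 3 counts in 12 of 36 libraries. With Egr1 in its place, Egr1 and Junb rose and fell together in polysomal RNA (r = 0.61, permutation p 0.00137, adjusted p 0.0493; rho = 0.61, adjusted p 0.0252; 0.51 without the 2 farthest libraries), and in total RNA none of the 9 relations was called.

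The genes most like each member over the 36 wild-type total libraries were ranked by Pearson's r of log2(CPM + 0.5). The genes were picked for their r in this series, and the values hold time of day, depth and library together and are given as a description. Junb was closest to Calcoco1 (r = 0.83, and 0.72, 0.54 and 0.12 in nuclear, polysomal and Bmal1-/- total RNA), Cmtm8 (0.82) and Avl9 (0.77). Egr1 was closest to 8430408G22Rik (0.79, then 0.60, 0.70 and 0.10), Bco2 (0.77) and Sco2 (0.75), and Dusp1 to Tfrc (0.74), G0s2 (0.71, then 0.56, 0.71 and 0.05) and Eif1b (0.70). Myc was closest to Phlda1 (0.61, then 0.58, 0.70 and 0.73), Cish (0.60) and Onecut1 (0.59), with r of at least 0.41 for all 3 in every series. Ier3 was closest to Flot1 (0.67), Cd52 (0.65) and Iqgap1 (0.64), Jun to Inhba (0.69), Wdr75 (0.69) and Phf8 (0.68), and Btg2 to Tagln2 (0.69), Mapre1 (0.67) and Tra2b (0.66). Ier2 was closest to Rpl18-ps2 (0.70), Rpl31-ps4 (0.69) and Apex1 (0.67), of which the first 2 are processed pseudogenes whose reads may come from their parent genes. For Fos (Vezt 0.58, Kpna4 0.56, Cyb561d2 0.56) and Atf3 (Dnajb14 0.61, Zfr 0.60, Rbm5 0.60) the counts were low.

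The same libraries show where transcripts of the members end. The authors' unfiltered list of polyadenylation sites, used here, held sites for 8 members. For Fos and Atf3 none lay in the gene or up to 1000 bp past it, and Myc had 1 site with a mean of 0.528 counts per wild-type total library. The authors' filtered list kept 5 of 9 sites for Jun, 1 of 2 for Junb and for Dusp1, 2 of 3 for Btg2 and 0 of 1 for Myc. It kept all sites of Egr1, Ier2 and Ier3. Junb and Dusp1 used almost a single site: chr8:84976908-84976988 took 98.4% ± 1.7 (SD, n = 36 libraries) of the Junb site counts in wild-type total RNA, and chr17:26505588-26505755 took 95.9% ± 2.5 of those of Dusp1. Across the other 3 series these shares were 97.65% to 98.7% and 93.7% to 97.3%. Ier3 had 1 site. Egr1 had 3, all near its 3′ end. Their mean shares differed between the fractions, each over its own libraries with at least 10 site counts, which need not match in time. The middle site took 70.1% ± 12.8 in wild-type total RNA (n = 26 libraries with at least 10 site counts) and 72.3% ± 8.2 in Bmal1-/- (n = 35), but 27.6% ± 14.6 in nuclear (n = 23) and 46.55% ± 17.6 in polysomal RNA (n = 26). The site nearest the start took 14.2% ± 8.3 in total and 38.4% ± 17.8 in nuclear RNA. Of the 2 sites of Ier2, chr8:84661393-84661515 took 72.8% ± 15.3 (n = 36) in total, 64.6% ± 16.45 (n = 33) in nuclear and 52.9% ± 19.9 (n = 35) in polysomal RNA. Jun was spread over 9 sites, of which chr4:95049595-95049626 took the most, 44.0% ± 9.6 (n = 36) in total and 50.8% ± 21.8 (n = 31) in polysomal RNA. In Btg2 chr1:134075319-134075408 took 80.0% ± 10.7 (n = 36) in total and 96.3% ± 6.0 (n = 16) in nuclear RNA. Site shares were not tested. The ratio of summed site counts to gene counts in wild-type total RNA was 0.62 for Jun and 0.98 for Dusp1, but 0.14 for Myc and 0 for Fos and Atf3. Part of the reads of some members, most of those of Myc and all of those of Fos and Atf3 thus lie outside the listed sites.

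The rest of the immediate early response was tested in the same fits. Of 42 other immediate early genes, 28 were tested in Bmal1-/- against wild-type total RNA and 17 called, 6 higher (22.4% of all genes) and 11 lower (21.7%), with a median log2 difference of -0.20, against 0.01 over all genes. Nr4a1, an orphan nuclear receptor, was higher by 2.09 (SE 0.37, adjusted p 3.15e-06) and Gadd45g, a stress sensor, by 1.33 (SE 0.27), while Gadd45a fell by 1.03 on the log2 scale (SE 0.18). In nuclear RNA 18 of 28 were called, 12 higher (41.6% of all genes) and 6 lower (42.1%), led by Cyr61 (1.77, SE 0.24), Dusp6 (-1.41, SE 0.12) and Gadd45a (-1.23, SE 0.22). In polysomal RNA 21 of 28 were called, 15 higher (38.8% of all genes) and 6 lower (37.2%). Jund, the third Jun family gene, led with 6.40 (SE 0.37), but replicate 1 held only 0.900 to 1.76 CPM of it and replicates 2 to 6 held 57.4 to 151 CPM, against 0.131 to 1.98 in total RNA. Cebpb followed with 1.93 (SE 0.14) and Gadd45g with -1.90 (SE 0.30).

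In time, 14 of 27 other immediate early genes were called in wild-type total RNA (18.9% of all genes), 6 of 28 in nuclear RNA (5.99%) and 8 of 28 in polysomal RNA (7.90%). The largest fitted ratios in total RNA were those of Klf10 (2.602, peak ZT9.73), Arid5b (2.51, ZT12.0) and Csrnp1 (2.4, ZT10.6), all later than Junb and Egr1. In nuclear RNA they were those of Csrnp1 (2.70), Cebpb (2.30) and Pim1 (2.25, ZT4.43), and in polysomal RNA those of Socs3 (3.12), Pim3 (2.87) and Klf10 (2.42). In Bmal1-/- liver edgeR called 0 of 28, 1 had an unadjusted p under 0.05 and DESeq2 called 0. The difference between genotypes was called for 5 of 28 (5.18% of all genes), of which Pim1 (adjusted p 0.00287), Arid5b (0.0207) and Ier5 (0.0265) had the lowest p and were named after their values were seen.

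Genes upstream of the members were tested as well. Of 23 kinases and transcription factors tested from a list of 24, 2 were higher in Bmal1-/- liver (22.4% of all genes) and 4 lower (21.7%), among them Rps6ka1, which encodes the kinase RSK1 (-1.15, SE 0.13), Mkl2, a coactivator of SRF (0.30, SE 0.07), and Mapk8, which encodes JNK1 (-0.19, SE 0.05). In wild-type total RNA 3 of 23 were called for a 24 h rhythm (18.9% of all genes): Mapk14 (ratio 1.49, peak ZT16.2), Met (1.38, ZT9.75) and Creb1 (1.265, ZT19.1). In nuclear RNA 10 were higher (41.6% of all genes) and 9 lower (42.1%) of 22, led by Map2k1 (-2.10, SE 0.13), Rps6ka3 (-1.63, SE 0.16) and Mapk9 (-1.27, SE 0.07). In polysomal RNA 13 were higher (38.8% of all genes) and 2 lower (37.2%) of 23, led by Mapk3 (1.555, SE 0.09), Mapk14 (0.9963, SE 0.06) and Elk3 (0.84, SE 0.10).

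Of 14 factors that bind AU-rich mRNAs or serve their decay, 4 were higher (22.4% of all genes) and 1 lower (21.7%) in Bmal1-/- liver. Btg1, the close relative of Btg2, was higher by 0.93 (SE 0.11) and Tob1 by 0.47 (SE 0.12), and Zfp36 (tristetraprolin), which degrades such mRNAs and is itself an immediate early gene, was lower, with a difference of -0.51 (SE 0.13, adjusted p 0.000583). In wild-type total RNA 4 of 14 had a 24 h rhythm (18.9% of all genes), led by Btg1 (ratio 2.47, peak ZT23.65), Tob2 (2.06, ZT11.6) and Zfp36l1 (1.73, ZT22.1). In nuclear RNA 6 were higher (41.6% of all genes) and 6 lower (42.1%), led by Tia1 (1.92, SE 0.10), Btg1 (1.155, SE 0.13) and Elavl1 (1.05, SE 0.09). In polysomal RNA 9 were higher (38.8% of all genes) and 3 lower (37.2%), led by Btg1 (2.24, SE 0.15), Elavl1 (1.53, SE 0.09) and Zfp36 (1.27, SE 0.14).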

How the data were processed

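The authors deposited raw counts per gene symbol and per polyadenylation site, each library in its own column, replicates kept apart. The submitters' processing notes name STAR 2.4.2a, HOMER, edgeR and the builds mm10 and GRCm38.p5; how reads were assigned to genes is not given in the sources used here. Gene counts were tested in R 4.3.3 with edgeR 4.0.16 (TMM, robust quasi-likelihood F tests, a minimum mean count of 10 over the libraries fitted, Benjamini-Hochberg over all genes, 0.05); DESeq2 1.42.0 was an alternative. Levels were compared over the mean of 6 time-point means in 12 groups, rhythm by the cosine and sine of 24 h within a series, and differences in rhythm by their interaction with series. Tests were checked on simulated counts.

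Columns were matched to samples by title, and 0 columns had no sample. Of 360 pairs of libraries within a group, 0 were identical. Depth was 5316601 to 9831142 counts in wild-type total, 1662449 to 6620128 in nuclear, 2578048 to 13068044 in polysomal and 4379549 to 14281894 in Bmal1-/- total RNA. The deposited TMM-normalized tables were not used. Positions of genes and promoters are those of RefSeq, GRCm38.p6, and positions of sites those of the deposited unfiltered list. All members and lists were chosen with earlier results of these data known. The named genes were the members, up to 3 called genes per list and test with the largest change or ratio, the 3 genes most like each member among 7973 whose mean count reached 50, and the clock and fraction checks.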

Additional observations from a re-analysis of the deposited data

Results flagged for a closer look

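Dixon's rule at the 95% level, for a library far from the other 5 of its group, was applied to each member at each time point of each series on the log2(CPM + 0.5) scale; it marked 18 of 240 groups, where chance marks about 1 in 20. Myc stood out highest at ZT18 in wild-type total replicate 4 (5.42 CPM), nuclear replicate 4 (6.22 CPM) and polysomal replicate 3 (3.94 CPM), and lowest in Bmal1-/- replicate 3 of ZT10 (0 CPM). Fos stood out highest in wild-type total replicate 3 of ZT6 (2.4 CPM), in polysomal replicate 6 of ZT2 (4.83 CPM), replicate 5 of ZT10 (1.05 CPM) and replicate 5 of ZT22 (1.37 CPM), and in Bmal1-/- replicate 3 of ZT6 (1.69 CPM).

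Ier3 stood out highest in polysomal replicate 1 of ZT22 (28.9 CPM) and Btg2 in nuclear replicate 5 of ZT22 (14.7 CPM), both libraries with Xist. Ier3 was lowest in nuclear replicate 3 of ZT18 (0.629 CPM) and Bmal1-/- replicate 1 of ZT2 (0 CPM). Junb was highest in polysomal replicate 3 of ZT10 (39.3 CPM) and Ier2 in polysomal replicate 1 of ZT2 (17.9 CPM). Jun was lowest in nuclear replicate 1 of ZT2 (4.04 CPM), Egr1 in wild-type total replicate 1 of ZT10 (0.762 CPM) and Ier2 in wild-type total replicate 3 of ZT22 (1.63 CPM).

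The interaction test of edgeR called a difference in the 24 h pattern of total RNA between the genotypes for Junb (adjusted p 0.00135) and Egr1 (adjusted p 0.0397). Both calls were lost with replicates 1 to 3 or 4 to 6 alone, and that of Egr1 also with time as 6 levels (adjusted p 0.322, edgeR).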

How the results depend on the processing

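Of 183 recomputed counts of called members, 157 stayed within 1.5 times the reported count and 26 moved. For single members, 1048 of 1112 recomputed values kept their side of the threshold and, for level differences, their direction, 36 lost a call, 12 gained one and 16 level differences changed sign; the rhythm tests have no sign. In Bmal1-/- liver the sign changed for Dusp1 (-0.16) and Junb (-0.003263) with replicates 1 to 3 only, for Egr1 with replicates 4 to 6 only (0.38), and for Jun without the library highest in most members (-0.0219). In nuclear RNA it changed for Egr1 when no gene with a count was left out (-0.0669). In polysomal RNA it changed for Dusp1 with replicates 1 to 3 only (-0.22) and for Ier3 with replicates 4 to 6 only (-0.58), with the replicate block (-0.17) and without the libraries with Xist (-0.0593). With 1 replicate number left out, differences ran from -0.0387 to 0.0926 for Jun, -0.0369 to 0.124 for Junb and -0.177 to 0.0239 for Egr1 in Bmal1-/- liver, from -0.132 to 0.0042 for Jun and -0.0654 to 0.210 for Egr1 in nuclear RNA, and from -0.70 to 0.42 for Ier3 in polysomal RNA. The level count in Bmal1-/- liver, 2 as reported, was 1 with replicates 1 to 3 only, 0 with all libraries in one fit and 1 to 3 with 1 replicate number left out; the nuclear level count, 4 as reported, was 2 with replicates 4 to 6 only. The rhythm count, 2 in each wild-type series as reported, was 1 with replicates 1 to 3 only in total and in nuclear RNA, 1 with time as 6 levels in total and in polysomal RNA, 4 with all libraries in one fit in polysomal RNA, and 1 to 2 with 1 replicate number left out in total RNA. The count for the difference in rhythm between the genotypes, 2 as reported, was 0 with replicates 1 to 3 or 4 to 6 only, 1 with all genes of at least 1 count, with all libraries in one fit, with time as 6 levels and without the library highest in Egr1 (chosen after seeing the data), and 1 to 2 with 1 replicate number left out. The count of relations with Fos in Bmal1-/- liver, 1 as reported, was 0 with replicates 1 to 3 or 4 to 6 only; with Egr1 in place of Fos, also chosen after seeing the data, it was 0 there and 1 in polysomal RNA. The cause was not tested, beyond fewer libraries or more genes where the alternative is built so.

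With the replicate number as a replicate block, the level counts were 3 (Ier2 was also called, 0.29, adjusted p 0.0394), 4 and 5 in Bmal1-/-, nuclear and polysomal RNA, the rhythm counts 2, 2, 2 and 0, and the difference counts 2, 0 and 0. With number and time point together as a replicate block, chosen after seeing the data, the nuclear level count was 4 and the nuclear difference count 0, with 1 of 11864 genes called and 416 at an unadjusted p under 0.05. The numbers were not taken to pair the samples: over 36 pairs with wild-type total RNA, the mean correlation of deviations was 0.347 for nuclear, -0.132 for polysomal and 0.0747 for Bmal1-/- libraries, with 34, 1 and 18 pairs above 0.1, and 29, 0 and 13 libraries correlated best with their own number. Depth limits Fos, Atf3 and Myc, which had at most 3 counts in 24, 12 and 26 of the 36 wild-type total libraries.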
